A study of Arabidopsis thaliana with 6 samples.

Results

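AT1G75060 and AT1G19330 are a pair of Arabidopsis genes, known as AFR1 and AFR2, whose products resemble SAP30, a small subunit of histone deacetylase complexes. They were chosen as the array rows whose single annotated gene is one of these loci, and they make up 2 of 16548 named genes in the test. Each gene had 1 row, so no choice between rows was needed. AFR1 was chosen by its difference between the sulfur sources in earlier results on these arrays, and AFR2 was added as its copy, so the differences of both between the sulfur sources are described without a test.

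Histone deacetylases remove acetyl groups from the tails of histones, which as a rule makes the chromatin of a gene less open to transcription. In the SIN3 type of complex a large scaffold protein holds the enzyme together with small subunits such as SAP30 and SAP18. In Arabidopsis leaves AFR1 and AFR2 are known for dampening the flowering gene FT towards the end of the day, in partnership with the MADS-box factor AGL18. Their work in roots is less well known.

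The arrays hold root RNA of Col-0 wild-type plants, 8 weeks old, raised in hydroponics with short days in MGRL medium in which chloride took the place of sulfate. One group received sodium sulfate at 300 µM as its sulfur source and the other sodium thiosulfate at 150 µM, so that the sulfur supply was equal, because thiosulfate carries a pair of sulfur atoms. There were 3 one-colour Affymetrix arrays per group, labelled as biological replicates without a statement that they came from separate cultures. Values below are the deposited log2 expression values, and a difference is thiosulfate minus sulfate unless stated otherwise. The labels give no batch, and arrays have no read depth, so their number limits the precision. In whole roots, fewer cells of a type and less RNA per cell cannot be told apart.

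The array medians over the tested genes lay between 2.34 and 2.39 in both groups. Over all rows of the table, named or not, they were 2.35 to 2.38 on the sulfate arrays and 2.41 to 2.48 on the thiosulfate arrays, which did not overlap. The part of this shift in the results was not tested beyond the other scalings tried. Of 11 markers for root hairs, dividing cells, ground tissue and green tissue, 6 were measured. Here and below, measured means named by a row with a single annotated gene. Other genes may have rows that carry no name or several names. The root hair expansins EXPA7 and EXPA18 averaged 2.61 and 2.36 in sulfate, and the green tissue gene RCA, Rubisco activase, averaged 3.76. Each gene has its own probes, so these levels are not set against each other. The defining ground tissue and meristem genes of roots on this list, SHR, SCR and PLT1, were not analysed here. Between the groups, none of the 6 markers had a limma p under 0.05, adjusted or unadjusted, as 0.0121% and 10.0% of all genes had, so 0 of 6 is near the background. Their differences ran from -0.21 to 0.31.

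AFR1 (AT1G75060) was listed at 2.47, 2.38 and 2.16 on the sulfate arrays of replicates 1 to 3, and at 3.35, 3.45 and 3.37 on the thiosulfate arrays. Every thiosulfate array stood above every sulfate array, with 0.87 between the highest sulfate and the lowest thiosulfate value. The group means were 2.34 ± 0.16 in sulfate and 3.39 ± 0.056 in thiosulfate (SD, n = 3 each). They differed by 1.05, or 2.08-fold on the listed values. The standard error of this difference was 0.15 by limma, which moderates each gene's variance over all genes. Of the 2 copies, AFR1 is the 1 whose groups did not overlap. Across the genes tested, 14.7% had no overlap in either direction, 7.11% had none with thiosulfate higher, and 0.411% were at least 2-fold higher in thiosulfate. AFR1 ranked 54th by difference from the top. These shares place AFR1 and carry no weight as evidence, since the same contrast chose it.

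AFR2 (AT1G19330) was listed at 5.07, 4.85 and 4.88 on the sulfate arrays and at 5.003, 4.80 and 4.79 on the thiosulfate arrays. The groups overlapped, and in each of them replicate 1 was the highest array. The means were 4.93 ± 0.12 in sulfate and 4.86 ± 0.12 in thiosulfate (SD, n = 3 each). The difference of -0.07, with a limma standard error of 0.15, was smaller than the SD within either group.

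**Figure D1:**
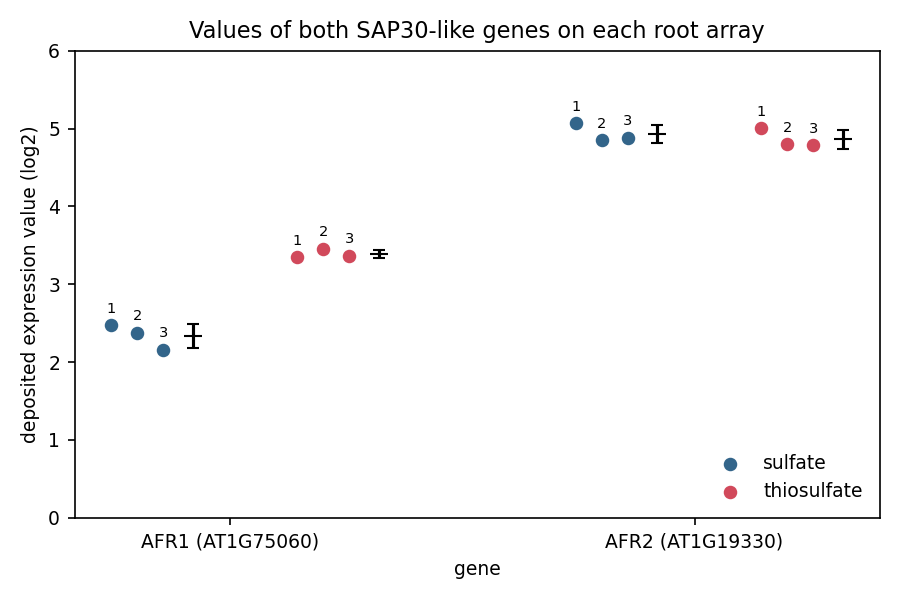
Deposited log2 values of AFR1 and AFR2 on each array, with replicate numbers above the points, sulfate in blue and thiosulfate in red, and the mean ± SD (n = 3) as a black bar beside each group. AFR1 lies between 2.16 and 2.47 in sulfate and between 3.35 and 3.45 in thiosulfate, while the groups of AFR2 overlap near 4.9.

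The copies thus differed in how their values moved with the sulfur source. AFR1 was chosen for its difference on these arrays and AFR2 was not, so such a gap follows largely from the choice. AFR2 minus AFR1 on the same array, a quantity that an array-wide scaling factor leaves untouched, was 2.59, 2.48 and 2.72 on the sulfate arrays and 1.66, 1.34 and 1.42 on the thiosulfate arrays. The smallest sulfate value exceeded the largest thiosulfate value by 0.82. The mean of this within-array difference was 2.60 ± 0.12 in sulfate and 1.47 ± 0.16 in thiosulfate (SD, n = 3 each), so it was narrower by 1.12 on the log2 scale, or 2.18-fold, in thiosulfate. Most of the narrowing lay in AFR1, whose own difference was 1.05 against -0.07 for AFR2.

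**Figure D2:**
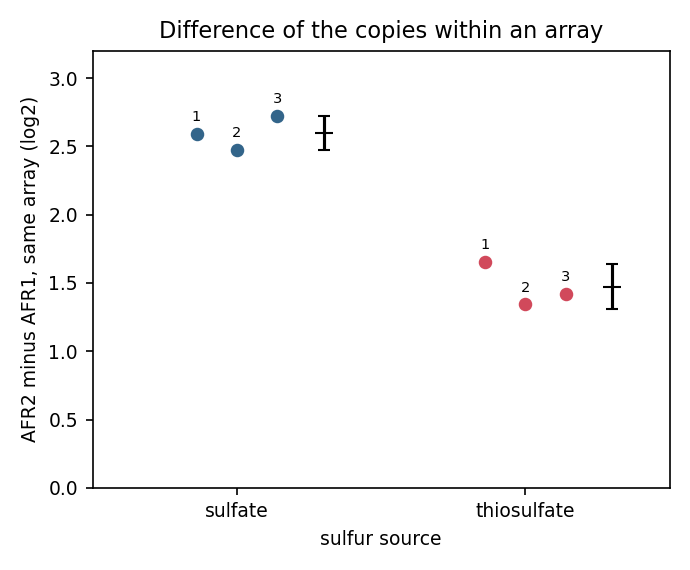
AFR2 minus AFR1 on the same array (log2) for the 3 sulfate and the 3 thiosulfate arrays, with replicate numbers above the points and the mean ± SD (n = 3) in black. All sulfate arrays lie at 2.48 or above and all thiosulfate arrays at 1.66 or below.

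AFR2 was listed higher than AFR1 on every array. Rows differ in their probes, so this order of brightness is not an order of transcript abundance. Probe sequences were not available, so whether the probes of either copy also bind RNA of the other was not checked. In brightness, the mean of AFR1 over the arrays exceeded that of 56.9% of the genes tested and the mean of AFR2 that of 81.3%. AFR1 in sulfate, at 2.34, lay close to 2.36, the median of all gene means, and no detection call came with the table. Its fold difference is therefore one of listed values. Replicates of both genes lay close together: the residual SD within groups was 0.12 for each, against a median of 0.21 over the genes tested, and 14.2% and 13.9% of genes had a smaller one than AFR1 and AFR2. AFR1 was chosen by its difference on these arrays, and whether that choice favoured a small spread was not tested. AFR2, added as the copy, had a spread of the same size, but a single gene cannot decide that question.

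Within the groups, the copies moved together on some arrays and apart on others. On 3 arrays both genes lay on the same side of their group means and on the other 3 on opposite sides. Sulfate replicate 1 was high in both, by 0.14 for AFR1 and 0.13 for AFR2. Thiosulfate replicate 1 was 0.14 above the group mean in AFR2 and stood at -0.04 relative to it in AFR1.

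The other genes of histone deacetylation and its setting were taken from lists of 101 further genes, of which 9 were named on the array. None of the 9 passed the limma test at an adjusted p of 0.05, which 0.0121% of all genes did, and 1 had an unadjusted p under 0.05, as did 10.0% of all genes. There were 4 with a positive and 5 with a negative difference, their median was -0.15 beside -0.016 over all genes, and the largest difference in size was that of AGL18. With so few members named, these counts describe single genes and not the pathway.

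AGL18 (AT3G57390), the MADS-box partner of AFR1 and AFR2 in leaves, was listed at 5.27, 5.07 and 5.32 in sulfate and at 4.64, 4.85 and 4.89 in thiosulfate. Here the thiosulfate arrays all lay below the sulfate arrays, a separation in this direction shared by 7.57% of genes. The means were 5.22 ± 0.13 and 4.79 ± 0.13 (SD, n = 3 each), a difference of -0.43 (95% interval -0.76 to -0.09) with an unadjusted limma p of 0.0186 and an adjusted p of 0.40. AGL18 was thus 1.34-fold higher in sulfate, a difference that did not pass the correction over all genes. GI (AT1G22770), GIGANTEA of the photoperiod pathway, was the only other measured gene of the 12 flowering genes. It averaged 6.47 ± 0.24 in sulfate and 6.32 ± 0.09 in thiosulfate with overlapping groups (SD, n = 3 each; limma adjusted p = 0.81). FT itself, FLC and SOC1 were not analysed here.

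Of the 12 deacetylases listed as RPD3-type, 2 were measured. Whether these 2 work with AFR1 or AFR2 was not tested, and the others, HDA19 and HDA6 among them, were not analysed here. HDA15 (AT3G18520) was listed at 5.90, 6.03 and 5.98 in sulfate and at 6.10, 5.87 and 6.21 in thiosulfate, a difference of 0.09 (95% interval -0.24 to 0.43; limma adjusted p = 0.87). HDA7 (AT5G35600) was dim, with means of 1.28 for sulfate and 1.13 for thiosulfate, and its difference of -0.15 is one of listed values (limma adjusted p = 0.79). The groups of both genes overlapped.

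Among the 14 deacetylase partners and corepressors 3 were measured, again with overlapping groups. SEU (AT1G43850), the SEUSS corepressor, averaged 7.21 ± 0.12 in sulfate and 7.34 ± 0.13 in thiosulfate (SD, n = 3 each), which differed by 0.13 (95% interval -0.20 to 0.46). AT3G52250, which is listed by locus only, had a difference of 0.14 (95% interval -0.23 to 0.51). LDL2 (AT3G13682), a homologue of the histone demethylase LSD1, had one of -0.19 (95% interval -0.70 to 0.31), and its sulfate arrays spread from 2.28 to 2.95. The limma adjusted p-values of these 3 genes were all 0.82.

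Of the 12 bromodomain genes, whose products bind acetylated lysine, 2 were measured. AT5G46550 had a difference of -0.23 (95% interval -0.61 to 0.16; limma adjusted p = 0.70) and AT1G17790 one of 0.13 (95% interval -0.35 to 0.60; limma adjusted p = 0.88). Neither pair of groups separated. No member was named of the 10 SIN3 scaffold and small subunit genes, the 5 MSI histone-binding genes, the 6 HD2-type and sirtuin deacetylases, the 14 histone acetyltransferases and adaptors or the 16 histone H3 and H4 genes, and these were not analysed here.

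**Figure D3:**
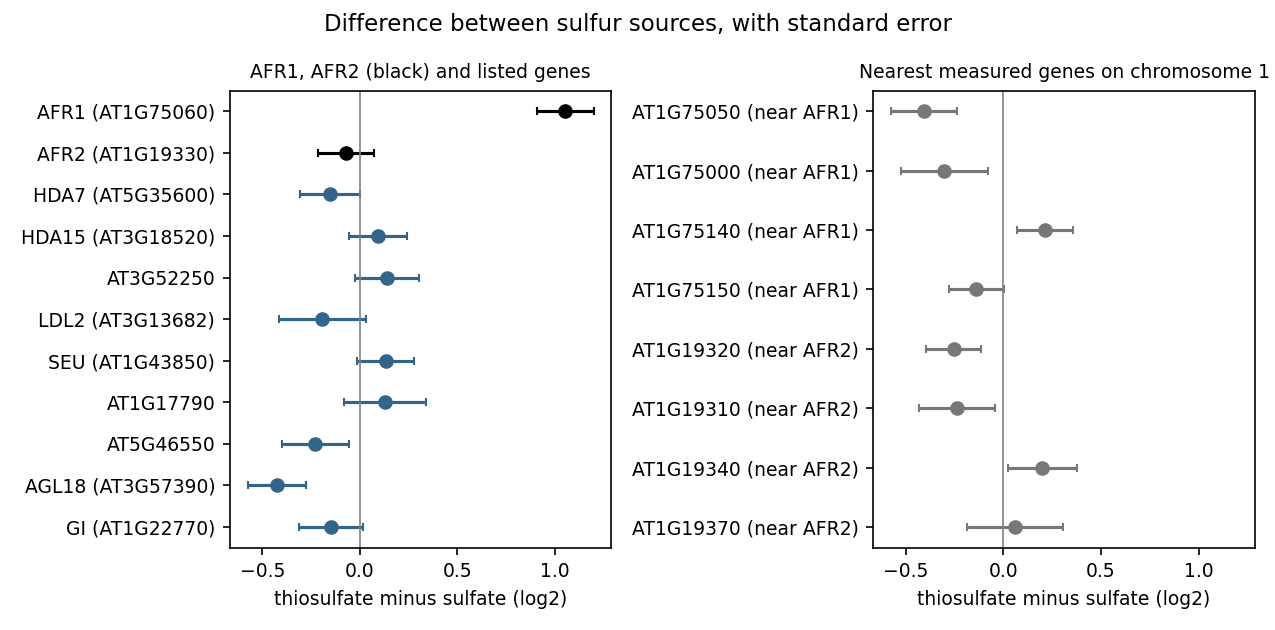
Difference between thiosulfate and sulfate (log2) with its limma standard error, for AFR1 and AFR2 (black) and the 9 listed genes measured (left), and for the nearest measured genes of each copy on chromosome 1 (right). AFR1 stands at 1.05, AGL18 at -0.43 and the other points between -0.41 and 0.21.

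Both copies lie on chromosome 1, and RefSeq lists 3 transcripts for each, which a single row of the array does not tell apart. The nearest 2 measured genes on each side were taken from the order of loci in RefSeq's TAIR10.1 annotation. Of these 8 neighbours, 0 passed the limma test after adjustment at 0.05, and 1, AT1G75050, did so without adjustment. Over all genes these shares were 0.0121% and 10.0%, so the neighbours' counts were near the background. AT1G75050, the locus next to AFR1, was listed at 1.60, 1.43 and 1.23 in sulfate and at 1.08, 1.18 and 0.78 in thiosulfate. It lay lower in thiosulfate while AFR1 lay higher, with a difference of -0.41 and a limma adjusted p of 0.46, and it was dim in both groups. On the other side the nearest measured gene, AT1G75140, was 11 loci away and had a difference of 0.21 (limma adjusted p = 0.67). The loci on either side of AFR2, AT1G19320 and AT1G19340, had differences of -0.26 and 0.20, with limma adjusted p-values of 0.59 and 0.76. AT1G19320 was dim too, with means of 0.93 in sulfate and 0.68 in thiosulfate. AT1G75140 was the one neighbour whose thiosulfate arrays all lay above its sulfate arrays, and in AT1G75050 and AT1G19320 they all lay below. That makes 3 of 8 without overlap, beside 14.7% of all genes in either direction, 7.11% higher and 7.57% lower.

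The genes with the pattern most like each copy were sought by Pearson's r over the 6 arrays, among the 8274 genes with a mean level of at least 2.36. For a gene whose groups stand apart, as those of AFR1 do, such an r mostly restates the group difference, and all genes share the same arrays. The closest to AFR1 was AT2G44065 (r = 0.994), at 5.52 ± 0.065 in sulfate and 5.82 ± 0.025 in thiosulfate (SD, n = 3 each). Next came AT5G18390 (0.985), AT5G47020 (0.981), AT2G45720 (0.981) and AT2G07170 (0.980). Their differences between sulfur sources were 0.39, 0.51, 0.34 and 0.86, each smaller than the 1.05 of AFR1. Sulfate replicate 3 was the lowest array in AFR1 and in 4 of these 5 genes, the exception being AT5G47020. The choice by r favours such a likeness too.

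The genes most like AFR2 were alike in their replicates, with groups that overlapped. They were TUBG1 (AT3G61650, r = 0.987), a gamma-tubulin, AT5G60730 (0.983), AT2G47680 (0.979), CSLC6 (AT3G07330, 0.979), of the cellulose synthase-like family, and THO1 (AT5G09860, 0.978), a subunit of the THO complex of messenger RNA export. In all 5 genes replicate 1 was the highest array of both groups, as in AFR2. The choice by r over these same arrays brings such a likeness with it, so it is no separate result. TUBG1, for example, was listed at 5.95, 5.53 and 5.67 in sulfate and at 5.83, 5.44 and 5.38 in thiosulfate.

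**Figure D4:**
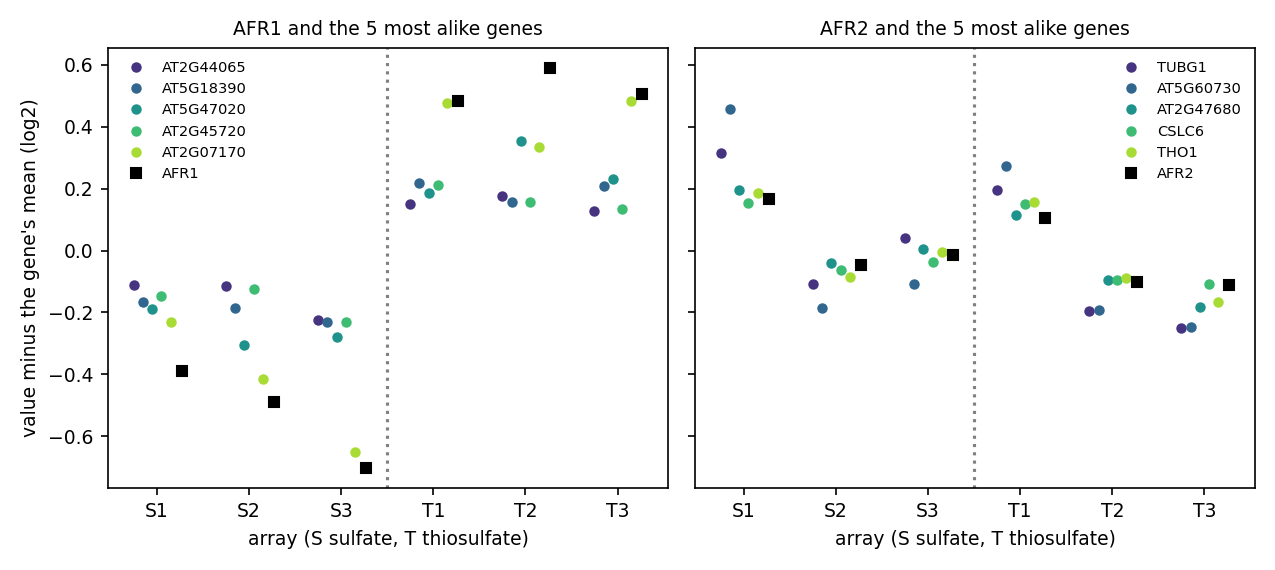
Value on each array minus the gene's own mean over the 6 arrays (log2) for AFR1 (left) and AFR2 (right) as black squares, and for the 5 genes most like each as coloured points, with S for sulfate and T for thiosulfate arrays. AFR1 and its companions step up between the groups, while AFR2 and its companions are highest on replicate 1 of each group. The companions were chosen for their likeness over these same arrays.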

How the data were processed

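The authors deposited log2 values, made with RMA in Transcriptome Analysis Console 4.0 per the submitters' processing notes. Filters, the genome build and the kind of RMA are not stated in the sources used here. Of 38408 rows, 16722 have 1 gene in the platform's annotation, 759 several, and 20927 are not listed there. Rows were named by gene identifier through RefSeq (TAIR10.1), which matched 16670, and of several rows the one with the highest mean was kept. AFR1 and AFR2 are listed there by locus only. No sequence of the genes or probes was used.

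All 16548 genes were fitted with limma 3.58.1 in R 4.3.3 (a group term, empirical Bayes, two-sided, Benjamini-Hochberg adjustment over all genes). The fit was also run on simulated data drawn from limma's own variance model. Such a run cannot show how well that model fits these arrays. Named were AFR1 and AFR2, up to 3 measured members of each list by smallest p, the 5 genes most correlated with each copy among genes at or above the median level, and 2 measured neighbours per side. The members and lists were chosen with earlier results of these data known. P-values measure only the spread between these samples, which may be technical. Alternatives were another normalization, filters on dim genes, other rules for rows, other variance models, each array left out, a block for the replicate number, and other thresholds. Plots used Python 3.11.15 and matplotlib 3.10.9.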

Additional observations from a re-analysis of the deposited data

How the results depend on the processing

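Over 15 alternatives the difference of AFR1 ran from 0.96, after a further quantile normalization, to 1.12, that of AFR2 from -0.15 to -0.0043, and AFR1 minus AFR2 from 1.06 to 1.22, each within 1 SD between replicates of the value reported. With 1 array left out the ranges were 0.97 to 1.12, -0.14 to -0.0043 and 1.06 to 1.22. In 6 of the 15, among them the filters, row rules and replicate block (1.05, -0.07 and 1.12), these values could not move by construction. The ranges of AFR1 and AFR2 thus rest on the other 9. Centring each array on its median could not move AFR1 minus AFR2 either (1.12), so the range of that quantity rests on fewer. After subtraction of the group means, arrays with the same number correlated at 0.056, -0.0247 and -0.0315 over all genes, so the numbers were not taken to pair the arrays. Of the 9 other genes of the lists (8 under both filters, which left out HDA7), 0 passed a limma adjusted p of 0.05 in any alternative, the replicate block included (1 at an unadjusted p under 0.05 there). With the block, with every row tested, and without any single array except thiosulfate replicate 2, 0 genes of the whole table passed by limma (1187 to 3502 at an unadjusted p under 0.05), so there the count says nothing about these genes. At an adjusted p under 0.1 it was 0, and at an unadjusted p under 0.05 it was 1, AGL18. With 1 array left out, the unadjusted p of AGL18 rose as high as 0.063, above 0.05 without sulfate replicate 1 or 3 or thiosulfate replicate 1. The difference of AGL18 stayed between -0.51 and -0.35 over all 15 alternatives. AT1G17790 turned to -0.00067 after quantile normalization and to -0.051 without sulfate replicate 3, and was 0.35 without sulfate replicate 2. LDL2 turned to 0.00064 without sulfate replicate 1. Signal over background was not available, which limits what the values of dim genes show.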
